A study of Rattus norvegicus with 54 samples.

Results

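The 10 genes described here are those of resident macrophages and monocytes: Vsig4, Cd163, Mrc1, Marco, Cd14, Csf1r, Cd68, Adgre1, Fcgr2b and C1qa. They were taken by gene symbol from the deposited count tables of a rat RNA-seq study of lung and heart right ventricle (RV). All 10 were among the 12650 genes of the lung table, and 8 were among the 12199 genes of the RV table, which has no entry for Vsig4 or Marco. The rats were Sprague Dawley and were taken at 6 weeks of age. The 2 treatments covered life before and after birth. Rats named H-H spent both in a hypobaric chamber set to 15% inspired oxygen, a simulated altitude of 9000 feet. Rats named RA-RA spent both in room air. Parents lived in the same air as their young. The H-H rats came from litters 3HH (8 lungs, 8 RVs) and 4HH (6 lungs, 6 RVs), and the RA-RA rats came from litters 4RARA (8 lungs, 7 RVs) and 6RARA (7 lungs, 4 RVs). Each litter belongs to 1 treatment, with 2 litters in each. The exposure tests count rats as independent replicates, so their p-values do not account for the sharing of a litter. Tests between 2 litters of a treatment set the difference between them against the spread among littermates only. Samples were pieces of whole tissue, so fewer macrophages and less RNA per macrophage cannot be told apart.

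Resident macrophages settle in a tissue early in life or are replaced from blood monocytes, clear dead cells and debris, and take much of their character from the organ they live in. In lung they lie in the air spaces, where they take up surfactant and inhaled particles, and in the walls of vessels and airways. In heart they lie between muscle cells and along vessels. Csf1r is the receptor for the growth factors on which macrophages depend for survival. Cd68 (a lysosomal protein) and Adgre1 (the antigen F4/80 of mouse) are general macrophage markers. Vsig4 (a complement receptor of the immunoglobulin family), Cd163 (the receptor for haemoglobin bound to haptoglobin), Mrc1 (the mannose receptor CD206) and Marco (a scavenger receptor for particles and bacteria) are uptake receptors of resident cells. C1qa encodes a chain of complement C1q. Cd14 binds bacterial lipopolysaccharide and is a classical marker of monocytes. Fcgr2b is the inhibitory receptor for immunoglobulin G and is carried by B cells as well as by myeloid cells.

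Promoter sequence was at hand for 9 of the 10 genes, from RefSeq on build GRCr8, and Fcgr2b had no entry. The 250 bases before the gene start are printed for Csf1r, Cd68 and Adgre1, 3 genes whose levels varied together from rat to rat in both tissues, and for Vsig4, the gene that was higher at altitude in lung. Capitals mark GAGGAA or its reverse complement TTCCTC, the purine-rich core bound by the macrophage factor PU.1. Each sequence reads 5′ to 3′ along its gene.
Csf1r, chr18:56834129-56834378, plus strand: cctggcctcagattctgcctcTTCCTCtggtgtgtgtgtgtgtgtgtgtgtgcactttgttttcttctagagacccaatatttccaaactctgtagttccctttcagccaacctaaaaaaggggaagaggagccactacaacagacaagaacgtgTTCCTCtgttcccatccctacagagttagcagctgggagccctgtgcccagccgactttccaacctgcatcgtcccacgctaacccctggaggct
Cd68, chr10:54882442-54882691, minus strand: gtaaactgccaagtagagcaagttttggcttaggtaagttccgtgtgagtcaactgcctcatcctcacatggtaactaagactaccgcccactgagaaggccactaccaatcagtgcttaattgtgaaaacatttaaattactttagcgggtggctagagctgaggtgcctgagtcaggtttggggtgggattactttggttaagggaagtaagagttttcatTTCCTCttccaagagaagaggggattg
Adgre1, chr9:2329190-2329439, plus strand: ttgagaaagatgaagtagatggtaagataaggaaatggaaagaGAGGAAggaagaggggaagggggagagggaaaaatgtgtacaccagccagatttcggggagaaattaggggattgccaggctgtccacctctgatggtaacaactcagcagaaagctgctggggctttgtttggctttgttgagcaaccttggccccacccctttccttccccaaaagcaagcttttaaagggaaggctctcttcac
Vsig4, chrX:65179709-65179958, minus strand: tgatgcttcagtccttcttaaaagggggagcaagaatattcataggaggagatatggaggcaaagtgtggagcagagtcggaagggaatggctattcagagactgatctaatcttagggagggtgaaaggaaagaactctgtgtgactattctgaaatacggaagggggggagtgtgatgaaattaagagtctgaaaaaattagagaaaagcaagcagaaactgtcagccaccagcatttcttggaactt
The motif, the only one searched, began 229 and 95 bases before the start of Csf1r, 27 bases before that of Cd68 and 207 bases before that of Adgre1. It was also present in the windows of Mrc1, Cd14 and Marco, and these letters were not found in those of Vsig4, Cd163 and C1qa. Of the 33469 rat promoters in the table, 23.3% held the motif on either strand in the same window, so a match is a description only.

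Total counts ranged from 1028679 to 23902634 in lung and from 6116006 to 16326512 in RV. A few libraries stood apart. The lung library of rat 4HH37 had the highest summed level of 8 heart muscle markers (13623 CPM, counts scaled to library size, against at most 215 in room air lung), and the RV library of that rat had the highest summed level of 8 lung epithelial markers (14977 CPM). Lung library 6RARA66 had the lowest total and the highest share of reads between genes (59.2%), and lung library 4HH39 had the lowest such share (11.5%). Both held lung epithelial markers at 70471 and 69868 CPM, above the other lungs. The 4 RVs of litter 6RARA had RNA integrity numbers (RIN) of 5.8 to 7.4 and 17.3% to 22.5% of reads between genes, against 9.28% to 12.3% in litter 4RARA. They also held lung epithelial markers at 294 to 1951 CPM and cardiac muscle markers at 21890 to 32426 CPM, against 71162 to 91771 CPM in 4RARA. The labelled tissues otherwise matched their markers: Sftpc, the surfactant protein C gene of alveolar epithelium, lay at 7824 CPM or more in every lung, and Myh6, a heart muscle myosin, at 5060 CPM or more in every RV. The summed level of 5 erythroid genes was 16787 CPM in lung library 4HH39 and 10174 CPM in lung library 6RARA68, against 7110 CPM or less in the other lungs. Where leaving such libraries out was tried, the values stand beside the result.

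The order of the members' levels in room air differed between the organs. Levels were compared between genes per kilobase of transcript, as RPKM. In the 15 room air lungs, Cd68 (median 69.5 RPKM, range 23.1 to 90.8) and Csf1r (67.99, 30.4 to 102) were highest. Mrc1 (44.996), C1qa (32.8), Cd14 (17.2), Fcgr2b (10.5) and Adgre1 (5.35) came next. Marco (1.70), Cd163 (1.37) and Vsig4 (0.975) were lowest. The ranges of all neighbours in that order overlapped. In the 11 room air RVs, C1qa was highest, with a median of 55.4 RPKM and a range of 33.7 to 63.7 that did not overlap that of the next gene, Csf1r (19.4, 12.2 to 25.9). Mrc1 (11.0), Cd68 (10.9), Cd163 (7.58), Cd14 (7.40), Adgre1 (3.91) and Fcgr2b (2.47) followed, each overlapping its neighbour.

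Between the organs, 7 of the 8 shared members differed in room air rats, against a background of 67.3% of 11601 genes called at an adjusted p under 0.05 (32.1% higher in lung, 35.2% lower). That share is so large that the count is not a result about the members, but the directions divide them. Cd68 (log2 difference of lung over RV 2.18 ± 0.18, SE), Fcgr2b (1.65 ± 0.20), Mrc1 (1.52 ± 0.17), Csf1r (1.36 ± 0.16) and Cd14 (0.74 ± 0.15) were higher in lung. Cd163 and C1qa were higher in RV. Cd163 had a median of 32.0 CPM in the 11 RVs (18.1 to 43.5) and 5.78 CPM in the 15 lungs (1.59 to 8.24), and its difference was −3.14 ± 0.17 (edgeR adjusted p = 3.28e-15). For C1qa the difference was −1.07 ± 0.11 (adjusted p = 6.97e-10). Adgre1 did not pass (−0.06 ± 0.22, adjusted p = 0.808). Without litter 6RARA the same 7 members were called, Adgre1 lay at 0.10 ± 0.14, and in the 7 RVs of 4RARA C1qa (median 55.5 RPKM) and Csf1r (22.2) were again the highest. The fits above counted the lung and RV of a rat as independent. In a fit that paired the organs of each rat that gave both, the same 7 members were called. Scaling assumes that most genes are alike in both organs, so these differences are relative to the rest of each organ's RNA.

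Altitude was associated with opposite changes of 2 members in lung. Among the 9 members tested, Vsig4 was higher and Fcgr2b was lower in the 14 H-H lungs than in the 15 RA-RA lungs, and 7 did not pass. Over all 12115 genes tested, 2.0% were called, 0.867% higher and 1.13% lower. Marco was removed by the filter on low counts. The median log2 difference over the 9 members was 0.03, and over all genes 0.02.

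Vsig4 (rn6 chrX:65370851-65400298, minus strand) was detected at low counts, of 18 to 111 reads per library at altitude and 1 to 44 in room air. Its level in litter 3HH ran from 1.42 to 3.79 CPM with a median of 2.28, and in litter 4HH from 1.01 to 8.03 with a median of 3.09. In room air it ran from 0.678 to 2.01 with a median of 1.42 in litter 4RARA, and from 0.923 to 3.12 with a median of 1.38 in litter 6RARA. Of the 14 altitude lungs, 13 lay above the room air median and 4 lay above the highest room air lung, so the groups overlapped. The log2 difference was 0.91 ± 0.22 (SE; edgeR adjusted p = 0.0187). Without 4HH37, 4HH39, 6RARA66 and 6RARA68 it was 0.75 ± 0.18 (adjusted p = 0.0163), and without 4HH39 alone it was 0.74 ± 0.19 (adjusted p = 0.0277). Of the libraries left out, 4HH39 had the highest Vsig4 at altitude and 6RARA68 the highest in room air. With the batch number of the core's run sheet (called library batch here) as a covariate it was 0.78 ± 0.24 and no longer called (adjusted p = 0.115). With litter as a random effect (limma voom) it was 0.80 ± 0.35 and not called (adjusted p = 1.00). With 1 litter left out the value was 0.65 without 4HH (adjusted p = 0.105), 0.82 without 4RARA (0.0909), 1.00 without 6RARA (0.0543) and 1.19 without 3HH (0.0171), so 3 of these 4 fits, each with fewer samples, lost the call. Vsig4 also marks the macrophages of liver, and the liver gene Alb ran from 0.0413 to 62.7 CPM in altitude lungs (median 0.467) and from 0 to 147 CPM in room air lungs (median 3.66). The summed level of 8 hepatocyte markers was 141 to 313 CPM at altitude (median 214) and 144 to 446 in room air (median 189), with none of the 8 at 0 in every library. Of the 4 tested, Serpina1 was called higher (0.88 ± 0.13) and 3 lay below 0, and their part in the Vsig4 difference was not tested.

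Fcgr2b (rn6 chr13:89329304-89343892, minus strand) was lower at altitude in both organs. In lung its range was 7.40 to 13.3 CPM in litter 3HH (median 9.50) and 7.49 to 16.9 in litter 4HH (11.3), against 13.6 to 29.9 in litter 4RARA (16.3) and 10.3 to 16.7 in litter 6RARA (11.9). Of the 14 altitude lungs, 7 lay below the lowest room air lung. The log2 difference was −0.54 ± 0.14 (edgeR adjusted p = 0.0275). In RV its range was 0.678 to 3.38 CPM in 3HH (median 1.40) and 1.03 to 3.97 in 4HH (2.44), against 2.15 to 7.43 in 4RARA (2.57), while the 4 RVs of 6RARA had 3.19, 3.76, 5.19 and 5.34 CPM. Of the 14 altitude RVs, 13 lay below the room air median and 8 below the lowest room air RV. The RV difference was −0.99 ± 0.25 (adjusted p = 0.0346), where 1 of 8 members and 3.04% of all 11298 genes were called, 0.832% higher and 2.2% lower. No member had ranges that did not overlap between treatments in either organ, and over all genes this held for 0.0158% higher and 0.0158% lower in lung and 0.0082% in each direction in RV. The median log2 difference in RV was 0.07 over the 8 members and 0.02 over all genes.

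Neither Fcgr2b difference held in every fit. With library batch as a covariate the values were −0.51 in lung (adjusted p = 0.107) and −0.94 in RV (0.108), and with litter as a random effect (limma voom) they were −0.52 (0.979) and −0.48 (0.91), none called. With RIN as a covariate the RV value was −1.08 (adjusted p = 0.0525). Without litter 4RARA the lung difference was −0.21 ± 0.14 (adjusted p = 0.392), and without 3HH it was −0.40 ± 0.20 (adjusted p = 0.287). In lung the median of 3HH (9.50 CPM) lay below that of 4RARA (16.3), while the median of 6RARA (11.9) lay near that of 4HH (11.3). In RV the difference was −0.69 without 3HH (adjusted p = 0.399), −1.21 without 4HH (0.0629) and −0.85 without 6RARA (0.352). Without 4HH37 and the low-integrity litter 6RARA together, it was −0.90 ± 0.28 and was not called (adjusted p = 0.216). The sign was negative under each of the 18 alternatives in lung and each of the 16 in RV. Markers of B cells and endothelium, which can also carry Fcgr2b, were measured beside it. In lung all 6 B cell markers tested had a log2 difference below 0, 1 of them called (Pax5, a B cell transcription factor, −1.10 ± 0.22; Cd79b and Ms4a1 among those called as well without the 4 lung libraries named above), and the summed level of the 6 ran from 40.9 to 106 CPM (median 73.0) against 47.1 to 146 (median 106), none at 0 in every library. In RV the B cell sum was 5.12 to 19.7 CPM (median 6.84) against 5.31 to 16.8 (median 8.24), and all 7 endothelial markers had a log2 difference below 0, 3 of them called (Emcn, Pecam1 and Tek). All 7 were higher in the RVs of 6RARA than in those of 4RARA, and without 6RARA 0 of 7 were called (median −0.14). The part of B cells or endothelium in the Fcgr2b difference was not tested. Fcgr2b also has close relatives among the Fc receptor genes, and how reads shared with them were counted is not given in the sources used here.

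**Figure D1:**
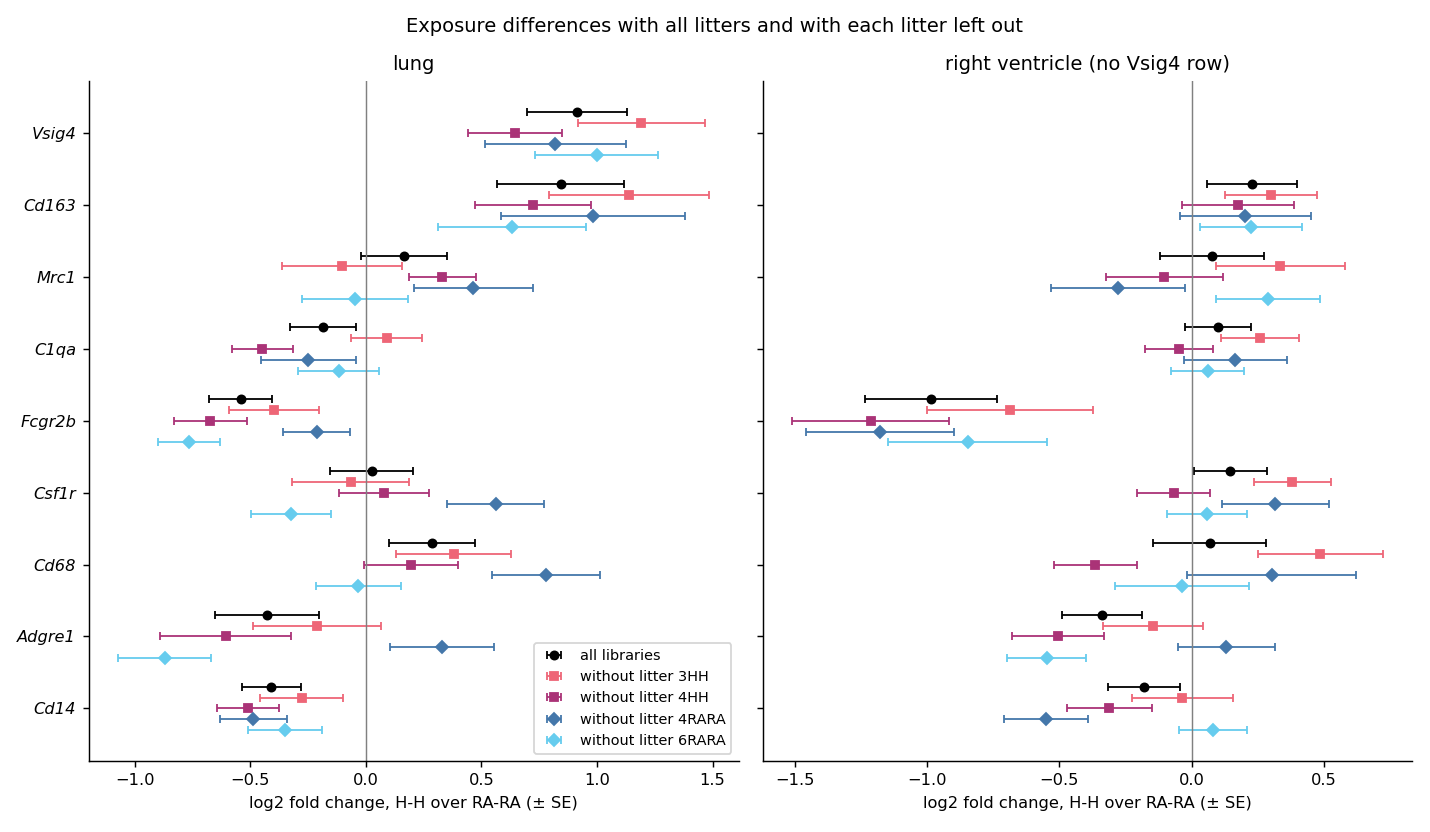
Log2 difference between altitude and room air (x axis, ± SE; above 0 is higher at altitude) for 9 members in lung and 8 in right ventricle, with all libraries (black) and with each litter left out (colours, given in the key). Vsig4 and Cd163 in lung and Fcgr2b in both organs keep their sign throughout; Adgre1 changes sign in both organs when litter 4RARA is left out.

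Cd163 and Cd14 lay on opposite sides in lung without passing. Cd163 lies at rn6 chr4:156752093-156785467 on the plus strand and Cd14 at chr18:29560364-29561959 on the minus strand. Cd163 ran from 1.88 to 18.9 CPM at altitude (median 7.24) and from 1.59 to 8.24 in room air (median 5.78). Its log2 difference was 0.84 ± 0.27 (edgeR adjusted p = 0.119; 0.0407 with DESeq2), and 6 of 14 altitude lungs exceeded the highest room air lung. Without 4HH39, whose level was the lowest of the altitude lungs, it was called (0.97 ± 0.25, adjusted p = 0.0259), as it was without the 4 lung libraries (0.91 ± 0.25, adjusted p = 0.0415). Cd14 ran from 15.9 to 34.4 CPM at altitude (median 18.5) and from 14.8 to 41.4 in room air (median 25.8), and 13 of 14 altitude lungs lay below the room air median. Its difference was −0.41 ± 0.13 (adjusted p = 0.0974). In the authors' deposited table, which gives its own log2 fold changes for lung, Vsig4 (0.81), Cd163 (0.74) and Cd14 (−0.46) had false discovery rates of 0.00277, 0.0347 and 0.0031, and Fcgr2b (−0.49) had 0.00873. In that deposited table for RV, Fcgr2b (−0.90) had a false discovery rate of 0.0108.

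The remaining members gave no exposure call in either organ, and their treatment ranges overlapped. In lung, Mrc1 ran from 41.3 to 396 CPM at altitude and 132 to 321 in room air, Csf1r from 82.0 to 351 and 113 to 379, Cd68 from 38.6 to 150 and 27.8 to 109, Adgre1 from 5.33 to 19.9 and 7.23 to 32.4, and C1qa from 14.1 to 64.02 and 27.4 to 52.7. The lowest Mrc1 and Csf1r and the highest C1qa at altitude were those of 4HH39. In test values, Csf1r had a log2 difference of 0.03 ± 0.18, Cd68 of 0.29 ± 0.19, Mrc1 of 0.16 ± 0.19, C1qa of −0.18 ± 0.14 and Adgre1 of −0.43 ± 0.22, with adjusted p from 0.419 to 0.984. In RV, C1qa ran from 31.1 to 78.0 CPM at altitude and 33.7 to 63.8 in room air, Csf1r from 52.9 to 141 and 45.01 to 95.9, and Mrc1 from 30.2 to 144 and 38.9 to 111. Their tests, with those of Cd163 (0.23 ± 0.17), Cd14 (−0.18 ± 0.14), Cd68 (0.07 ± 0.21) and Adgre1 (−0.34 ± 0.15), gave 0.10 ± 0.13 for C1qa, 0.15 ± 0.14 for Csf1r and 0.08 ± 0.20 for Mrc1, with adjusted p from 0.2 to 0.861. Whether the exposure difference itself varied with the organ was tested as an interaction: 0 of 8 members passed, also at an unadjusted p under 0.05 and with DESeq2, against 1.02% of 11723 genes. The closest were Cd163 (0.61 ± 0.33, lung minus RV) and Fcgr2b (0.43 ± 0.26). With litter 4RARA left out, Fcgr2b passed (edgeR adjusted p = 0.011), in a fit that called 3474 of 11814 genes. At an unadjusted p under 0.05 lay Cd163 and C1qa without 4HH37 and the other 3 lung libraries, and Cd68 and C1qa without litter 4HH, against 12.3% of genes in the fit of all libraries.

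**Figure D2:**
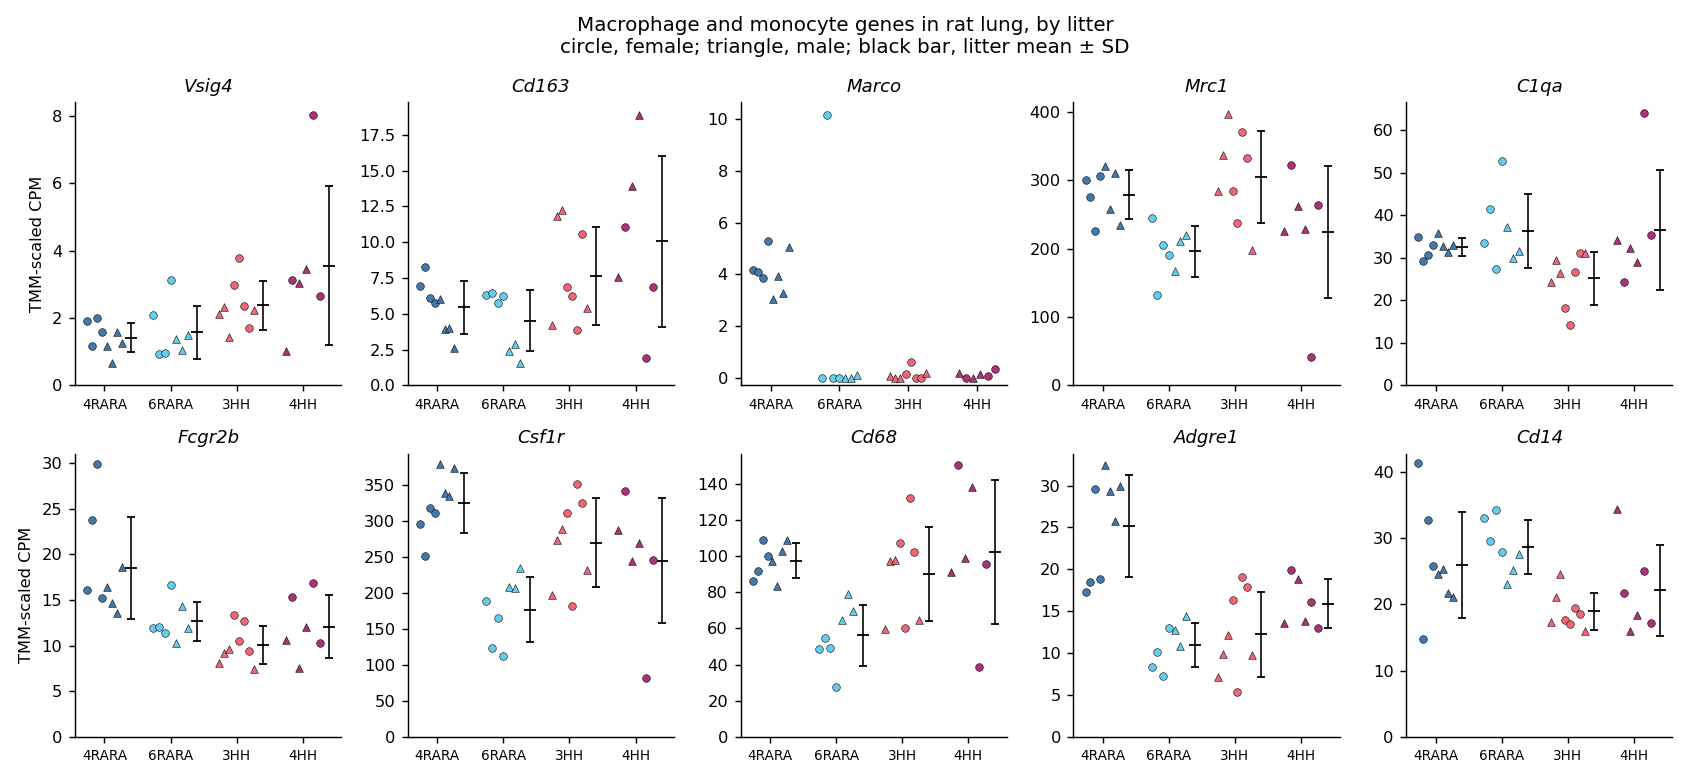
TMM-scaled CPM (y axis, each panel on its own scale) of the 10 members in each lung library, by litter (x axis; 4RARA and 6RARA in room air, 3HH and 4HH at altitude); the black bar is the litter mean ± SD, left out for Marco. Vsig4 reaches 8.03 in 4HH39, Marco lies between 3.03 and 5.28 in every 4RARA lung, and Csf1r, Cd68 and Adgre1 lie lower in 6RARA than in 4RARA with no overlap.

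Marco reads lay almost wholly in 1 litter. This receptor marks air space macrophages. The 8 lungs of litter 4RARA held 620 Marco reads in all, 48 to 117 in each, or 4.19 CPM of unscaled library totals (95% exact Poisson interval 3.87 to 4.53). The 8 lungs of 3HH held 12 reads (0.0918 CPM, 0.0474 to 0.160), and the 6 of 4HH held 14 (0.131 CPM, 0.0715 to 0.219). The 7 lungs of 6RARA held 13 reads, of which 11 lay in the shallow library 6RARA66 (10.7 CPM, 5.34 to 19.1) and 2 in the other 6 lungs (0.0202 CPM, 0.00245 to 0.0730). The intervals cover counting error only. Each altitude lung held at most 8 Marco reads, and no Marco read was found in 4 of 8 lungs of 3HH, 2 of 6 of 4HH and 5 of 7 of 6RARA. Between the room air litters the log2 difference of 6RARA over 4RARA was −4.64 ± 0.94 (edgeR adjusted p = 0.00164), −3.07 ± 1.46 with DESeq2 (adjusted p = 0.0827), and −7.24 ± 0.43 without 6RARA66 (edgeR adjusted p = 2.31e-07). In the authors' deposited table, Marco is listed with a log2 fold change of −4.69 between H-H and RA-RA and a false discovery rate of 1.59e-05. The room air reads behind such a difference come mostly from 4RARA, with 11 reads in 6RARA66 and 2 in 6RARA72, so the treatment and the litter cannot be told apart for this gene.

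The position of Marco in the deposited table also differs from the current assembly. The table, on rn6, places it on chromosome 16 (chr16:85115199-85147683, minus strand) between Myo16 and Tnfsf13b, and RefSeq on GRCr8 places Marco on chromosome 13 between C1ql2 and En1. The other 9 members lie on the same chromosome in both. Of 11978 lung table genes with a RefSeq entry of the same symbol, 53 (0.442%) lie on different chromosomes. The rn6 neighbours also had their highest medians in 4RARA, but with smaller differences between litters than Marco. Myo16 had medians of 2.34, 1.57, 1.63 and 1.25 CPM in 4RARA, 6RARA, 3HH and 4HH, and Tnfsf13b had 4.19, 3.28, 2.33 and 2.62. The highest Tnfsf13b level in 6RARA was 10.2 CPM, above the highest in 4RARA (6.62).

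The room air litters differed in more members than the treatments did. In lung, 6 of 10 members were lower in 6RARA than in 4RARA and 0 were higher, against 31.3% of 12124 genes called, 15.6% lower and 15.6% higher. Adgre1 ran from 7.23 to 14.4 CPM in 6RARA and from 17.3 to 32.4 in 4RARA (log2 difference −1.17 ± 0.15, edgeR adjusted p = 8.62e-05). Csf1r ran from 113 to 235 CPM against 251 to 379 (−0.86 ± 0.12, adjusted p = 0.000126). Cd68 ran from 27.8 to 78.9 CPM against 83.4 to 109 (−0.81 ± 0.15, adjusted p = 0.00107). The 2 litters did not overlap for these 3 genes, and 7.8% of all lung genes lay lower in 6RARA with no overlap and 4.68% higher. Mrc1 (−0.50 ± 0.13) and Fcgr2b (−0.54 ± 0.16) were also lower, with overlap. Vsig4 (0.21 ± 0.26), Cd14 (0.13 ± 0.16), C1qa (0.14 ± 0.13) and Cd163 (−0.46 ± 0.21) did not pass. The median difference was −0.52 over the 10 members and 0.04 over all genes. Without library 6RARA66, 6 members were again called lower, and with DESeq2 5 were.

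Exposure values of the general macrophage markers differed with the room air litter used as the reference. Adgre1 in lung was lower at altitude against 4RARA alone (−0.87 ± 0.20, adjusted p = 0.0248), and its value against 6RARA alone was 0.33 ± 0.23 (adjusted p = 0.405). Cd68 was higher at altitude against 6RARA alone (0.78, adjusted p = 0.0366), and against 4RARA alone its value was −0.03. For Csf1r the values were −0.32 and 0.56, neither called. Vsig4 (1.00 and 0.82) and Cd14 (−0.35 and −0.49) had the same sign against either litter. Lists of other myeloid genes were compared between the 2 litters as well, where 15.6% of all lung genes were called lower and 15.6% higher. Of 9 monocyte genes tested, 5 were lower in 6RARA and 0 higher, among them Cx3cr1, the fractalkine receptor (−1.23 ± 0.25). Of 12 resident macrophage genes, 2 were lower, Mertk (a receptor for dead cells) and Cx3cr1, and 2 were higher, Pf4 and Apoe, a share near that of all genes. Of 12 general macrophage and myeloid genes, 5 were lower and 0 higher. Of 9 alveolar macrophage genes, 2 were lower and 1 higher, and 0 of 6 genes of lipopolysaccharide recognition were called. Summed neutrophil markers ran from 201 to 520 CPM in 6RARA and from 417 to 690 in 4RARA, and 6 of 10 were called lower; their part in the members' difference was not tested.

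In RV the room air litters also differed, but most genes did, 64.6% of 11407 (33.1% higher, 31.5% lower). Of 8 members, Cd14 (0.64 ± 0.15) and Mrc1 (0.59 ± 0.20) were higher and Adgre1 (−0.66 ± 0.17) was lower in 6RARA. Cd14 lay at 12.1, 14.8, 16.3 and 18.1 CPM in the 4 RVs of 6RARA and between 6.87 and 12.04 in the 7 of 4RARA, with no overlap. Adgre1 lay between 9.21 and 11.1 CPM against 12.4 and 22.7, again with no overlap. Of all genes in the RV table, 20.0% lay higher and 24.3% lower in 6RARA with no overlap. These 4 libraries have the lower integrity and hold lung epithelial markers, whose 8 genes were all called higher. With RIN as a covariate, Adgre1 (adjusted p = 0.31) and Cd14 (0.056) were no longer called and Cd163 was (0.77, adjusted p = 0.00542). Mrc1 lost its call without 6RARA65 (0.36, adjusted p = 0.14) and without 6RARA71 (0.50, adjusted p = 0.0773). Adgre1 was the member lower in 6RARA in both organs.

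**Figure D3:**
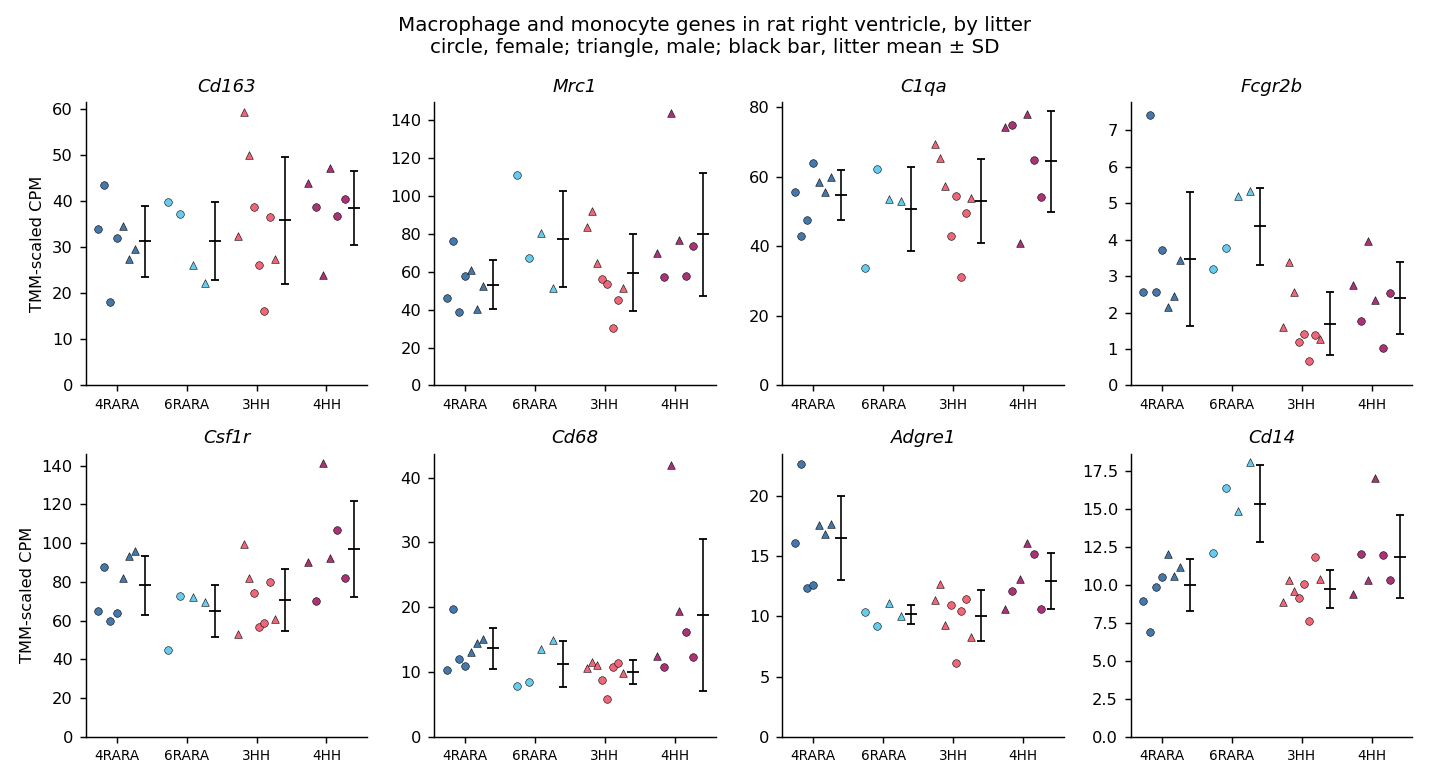
TMM-scaled CPM (y axis, each panel on its own scale) of the 8 members in each right ventricle library, by litter (x axis; 4RARA and 6RARA in room air, 3HH and 4HH at altitude); the black bar is the litter mean ± SD. Fcgr2b lies between 0.678 and 3.97 at altitude and between 2.15 and 7.43 in room air, and the highest Mrc1 (144) and Cd68 (41.9) are those of 4HH37, which holds lung transcripts.

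The altitude litters gave no member call in either organ (edgeR, 0 of 9 in lung with 0.741% of 12141 genes called, 0 of 8 in RV with 0.0531% of 11297). At an unadjusted p under 0.05 there was 1 member in lung, C1qa (0.55 ± 0.23, higher in 4HH; 0.30 ± 0.17 and not at that p without 4HH39), and there were 4 in RV, against 16.3% and 14.3% of all genes, while DESeq2 called 0 in lung and 1 in RV. In RV the log2 difference of 4HH over 3HH was above 0 for 8 of 8 members, with a median of 0.39 against 0.02 over all genes. This was not particular to the members. It also held for 12 of 12 general macrophage and myeloid genes (median 0.55), 12 of 12 resident macrophage genes (0.39) and 7 of 7 endothelial markers (0.35). T and NK cell markers had 5 of 8 above 0 (median 0.05), and cardiac muscle markers 3 of 8 (−0.07). Among the members, the values were 0.86 ± 0.25 for Cd68 (called by DESeq2, adjusted p = 0.0417), 0.45 ± 0.17 for Csf1r, 0.43 ± 0.19 for Mrc1 and 0.36 ± 0.16 for Adgre1. Cd68 lay at 41.9 CPM in the RV of 4HH37, and without that animal its difference was 0.52 and not called. The RV of 4HH37 holds lung transcripts, and without it Csf1r (0.33 ± 0.16), Mrc1 (0.25 ± 0.18) and Adgre1 (0.35 ± 0.17) no longer had an unadjusted p under 0.05, while Cd68 and C1qa (0.43 ± 0.13) did.

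Sex gave no member call (edgeR and DESeq2, 0 of 9 in lung and 0 of 8 in RV, with 0.033% and 0.0443% of genes called). At an unadjusted p under 0.05, Vsig4 (−0.60 ± 0.22, male over female) and Fcgr2b (−0.37 ± 0.14) lay lower in male lungs, and Csf1r (0.28 ± 0.14) and Cd68 (0.49 ± 0.21) lay higher in male RVs. At that p lay 3.88% of all genes in lung and 6.41% in RV, and without 4HH37, a male whose RV holds lung transcripts, 0 members did in RV. The exposure difference of Cd163 in lung was 1.67 ± 0.34 in males (adjusted p = 0.0175) and 0.07 ± 0.29 in females (adjusted p = 0.989). In room air it was 3.35 ± 1.47 CPM in 7 males and 6.48 ± 0.81 in 8 females (mean ± SD), and at altitude 10.6 ± 5.19 in 7 males and 6.78 ± 3.32 in 7 females. The interaction of sex and treatment, tested after these values were seen, was 1.59 ± 0.46 (unadjusted p = 0.00155) and did not pass over all genes (adjusted p = 0.432 with edgeR, 0.151 with DESeq2). That interaction called 0.0% of genes in lung and in RV, where for Cd163 it was 0.57 ± 0.33.

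Within litters, Csf1r, Cd68 and Adgre1 varied together, and Vsig4 did not vary with them. After each litter mean was subtracted from log2 CPM, Csf1r and Cd68 correlated at a Spearman rho of 0.81 over 29 lungs and 0.71 over 25 RVs. Adgre1 correlated with Cd68 at 0.58 and 0.63, and with Csf1r at 0.57 and 0.44. In lung, Mrc1 correlated with Csf1r at 0.60. In RV, other pairs lay above the 0.44 of Adgre1 with Csf1r. They included Cd68 with Fcgr2b (0.49), Mrc1 with Fcgr2b (0.48), Cd163 with Mrc1 (0.47) and Cd14 with C1qa (0.47). Vsig4 had its highest value in lung with Fcgr2b (0.35), and its values with Cd163 (−0.07), Cd68 (−0.11) and Csf1r (−0.26) were low. Over all pairs without Marco, 20 of 36 were above 0 in lung with a median of 0.03, and 22 of 28 in RV with a median of 0.24. Without the libraries that stood apart the medians were 0.14 over 25 lungs and 0.28 over 20 RVs. The correlations are descriptions, over libraries that share sequencing runs and differ in depth and tissue sampling.

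**Figure D4:**
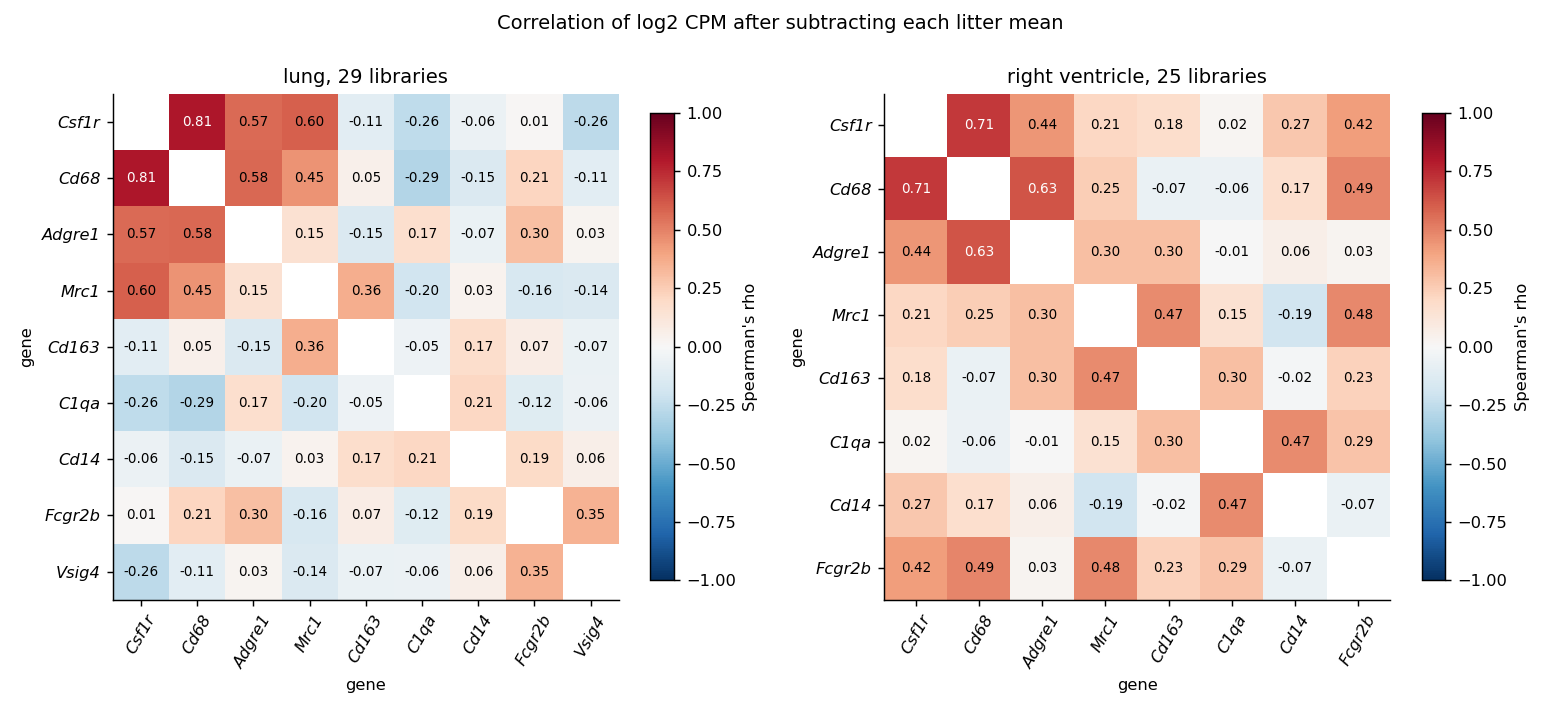
Spearman's rho of log2 CPM between members (both axes; colour scale from −1 to 1), over 29 lung and 25 right ventricle libraries after each litter mean was subtracted; Marco is left out and Vsig4 has no right ventricle entry. Csf1r, Cd68 and Adgre1 form the reddest block in both organs, at 0.57 to 0.81 in lung and 0.44 to 0.71 in right ventricle.

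In 25 rats both organs were measured. Cd163 was the member with the highest correlation between them: its litter-centred levels in lung and RV correlated at a rho of 0.64 (Pearson r 0.48) over 25 rats, and at 0.65 (r 0.66) over the 19 rats whose libraries did not stand apart. The other 7 shared members had rho between −0.24 and 0.34 over the 25 rats. Sex was not subtracted from these levels. Mean Cd163 was lower in males than in females in room air, and higher in males at altitude, in both organs. The part of sex in the Cd163 correlation was not tested. Of genes that are no members, those most like the mean of the standardised members in lung included Gnl3l (rho 0.81), Amer1 (0.81), Ptafr (0.79) and Myo5a (0.77). Ptafr encodes the receptor for platelet-activating factor. In RV they were Tagln2 (0.89), Anxa2 (0.87), Tpm3 (0.87), Tubb5 (0.86) and Cd300le (0.84), the first 4 of which encode cytoskeletal or membrane-binding proteins of many cell types. Those most like Vsig4 in lung were LOC103692984 (0.64), Itgae (0.63), Recql (0.62), RGD1310352 (0.62) and Wdr41 (0.62), out of 12084 genes. The low counts of Vsig4 limit that list as well.

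Other genes of the macrophage pathways gave few exposure calls, and without litter 6RARA none of the list genes tested in RV was called, where calls over all genes went from 343 to 18. None of the lists named here holds a member. Over all genes tested, 13.4% in lung and 20.7% in RV had an unadjusted p under 0.05 for exposure. Of 12 general macrophage and myeloid genes, 0 were called in either organ (0 in lung and 1 in RV at an unadjusted p under 0.05), and the lowest p was that of Lyz2 in lung (lysozyme, 0.33 ± 0.21) and of Cd53 in RV (−0.28 ± 0.13). Of 12 resident macrophage genes, Lyve1 was lower in lung (−1.06 ± 0.15, adjusted p = 5.67e-05) and Apoe, the apolipoprotein of lipid-laden macrophages, was lower in RV (−0.84 ± 0.23, adjusted p = 0.0427). Lyve1 is a hyaluronan receptor of lymphatic endothelium as well as of vessel-side macrophages, and it is counted among the lymphatic markers too. Of the alveolar macrophage genes, Pparg, the nuclear receptor needed for those cells, was higher in lung (0.51 ± 0.13, adjusted p = 0.0334; 1 of 9). In RV, Pparg (−0.92 ± 0.25) and Car4 (−0.89 ± 0.21) were lower (2 of 7), both of which other cells express. These RV genes were also higher in 6RARA than in 4RARA (Pparg 1.25 ± 0.30, Car4 1.49 ± 0.17, Apoe 1.25 ± 0.18). Without 6RARA the exposure values were −0.38 for Pparg, −0.17 for Car4 and −0.24 for Apoe, none called. The median of the alveolar macrophage list was 0.29 in lung and −0.68 in RV, or 0.05 in RV without 6RARA.

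The signalling and uptake lists were as sparse, beside 13.4% of all genes in lung and 20.7% in RV at an unadjusted p under 0.05. Of the CSF1 axis, 0 of 8 genes were called in lung (1 at an unadjusted p under 0.05), where Cebpa was closest (−0.42 ± 0.12, adjusted p = 0.0731), and 1 of 7 in RV, Csf2rb, the shared receptor chain for GM-CSF (−0.98 ± 0.26; −0.50 ± 0.26 and not called without 6RARA). Of 9 monocyte genes, 0 were called in either organ (2 in lung and 1 in RV at that unadjusted p), with Spn lowest in p in lung (−0.45 ± 0.18) and Vcan in RV (0.44 ± 0.15). Vcan was lower in the RVs of 6RARA than in those of 4RARA (−0.62 ± 0.18). Of the partners of Cd14 in lipopolysaccharide recognition, 0 of 6 were called in either organ (0 and 2 at that unadjusted p), and the median was −0.10 in lung and −0.16 in RV. Of 7 Fc receptor and signalling genes other than Fcgr2b, 0 were called in either organ (0 and 1), and in RV all 7 lay below 0, led by Fcgrt (−0.56 ± 0.18), the neonatal Fc receptor. Fcgrt was higher in the RVs of 6RARA than in those of 4RARA (1.22 ± 0.13). Without 6RARA, 5 of the 7 lay below 0 in RV, with a median of −0.07. Of 9 complement genes, C3 was lower in lung (−1.02 ± 0.26, adjusted p = 0.03) and 0 were called in RV (0 unadjusted). Of 8 genes of haemoglobin and iron handling, the pathway of Cd163, 0 were called (3 in lung and 1 in RV unadjusted), and Hp, the haptoglobin that Cd163 takes up with haemoglobin, lay at −0.55 ± 0.18 in lung and −1.80 ± 0.60 in RV. In RV, Hp was higher in 6RARA than in 4RARA (3.92 ± 0.85), and RV library 6RARA72 held hepatocyte markers at 2065 CPM. Of 5 other scavenger receptors, 0 were called (2 in lung and 1 in RV unadjusted), with Colec12 lowest in p in lung (0.36 ± 0.12) and Scarb1 in RV (−0.54 ± 0.21). Scarb1 was higher in the RVs of 6RARA than in those of 4RARA (1.20 ± 0.11).

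Markers of other blood and vessel cells were measured beside them in lung. Of 10 neutrophil markers 1 was lower at altitude (Cd177, −2.06 ± 0.40), of 8 T and NK cell markers 1 was lower (Prf1, the pore-forming perforin, −0.63 ± 0.17), and of 6 dendritic cell markers 0 were called (2 unadjusted). Of 7 endothelial markers Plvap (−0.73 ± 0.15) and Tek (−0.43 ± 0.12) were lower and Emcn (0.60 ± 0.15) was higher. Hepatocyte markers included 1 that was higher, Serpina1 (0.88 ± 0.13), of 4 tested. In RV, 0 of 6 neutrophil, 0 of 8 T and NK cell and 0 of 6 dendritic cell markers were called (3, 0 and 4 unadjusted). Over all genes, 13.4% in lung and 20.7% in RV had an unadjusted p under 0.05. Of 6 lymphatic markers in RV, Ccl21 was lower (−1.28 ± 0.28; −0.45 ± 0.19 and not called without 6RARA). Without the 4 lung libraries, calls were added in lung for Siglec1 (0.71 ± 0.17), Plac8 (−0.66 ± 0.16) and Hp (−0.65 ± 0.13) of the macrophage, monocyte and iron lists. Their part in the members' values was not tested.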

How the data were processed

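Lung and RV of 6-week-old rats were profiled by RNA-seq, in 54 libraries (29 lung, 25 RV). Per the submitters' processing notes, read quality was looked at in FastQC and MultiQC 0.11.5. Mapping used STAR 2.5 and counting used featureCounts 1.5.1. The genome was rn6, per the labels. The deposited values are raw counts per gene, already limited by the authors to 12650 lung and 12199 RV genes by a rule not given in the sources used here. The authors also deposited, for each gene, their own log2 fold change between treatments with a p-value and false discovery rate, which were only set beside the values computed here. Other deposited values, per the file headers, are gene length, mapping statistics and a batch number for each library on the core's run sheet. That number is called library batch here, and its header does not say what kind of batch it is. Table entries with no gene symbol numbered 22 in lung and 21 in RV.

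The main test was the quasi-likelihood test of edgeR 4.0.16 under R 4.3.3. Genes passed filterByExpr (minimum count 10, minimum total 15), libraries were scaled by TMM, and glmQLFit (robust) and glmQLFTest were applied with treatment and sex, or litter and sex within a treatment. SEs were taken from the log2 fold change and its F statistic. Adjusted p follows Benjamini and Hochberg over all genes tested, with a call under 0.05. CPM are scaled by TMM within a tissue, RPKM divide them by the deposited gene length, and correlations use log2 CPM with a prior count of 2. Alternatives used DESeq2 1.42.0 and limma 3.58.1. The code was tested on simulated data with known changes.

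The lung and RV of one animal carry one name, per the labels, and 25 animals gave both, so the replicate block pairs the organs of an animal. Across treatments equal numbers are different rats and pair nothing. The run sheet of the core marks the libraries of animal 3HH28 as swapped and its RIN as not right. Their lung and heart markers match the labels, which were used as given.

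The members and gene lists were chosen with earlier results of these data known. Named genes were all members, the 5 genes most like Vsig4 and most like the members' mean, and of each list those called for exposure or, with none called, that of lowest p. A few genes named in the comparison of the room air litters (Cx3cr1, Mertk, Pf4 and Apoe) and those added without some libraries (Siglec1, Plac8, Cd79b and Ms4a1) were chosen after their values were seen. A gene that the rule names in lung is not reported here.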

Additional observations from a re-analysis of the deposited data

Results flagged for a closer look

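In 11 of 72 groups of litter, gene and organ, 1 library lay far from the rest of its litter by Dixon's test, in which chance gives about 1 in 20. In lung, library 4HH39 was apart for 4 members: Vsig4 (8.03 CPM) and C1qa (64.02 CPM) were high, and Mrc1 (41.3 CPM) and Csf1r (82.0 CPM) were low. Marco was high within its litter in 3HH27 (0.614 CPM, from 6 reads) and in 6RARA66 (10.2 CPM, from 11 reads). In RV, Mrc1 (144 CPM) and Cd68 (41.9 CPM) were high in 4HH37, which holds lung transcripts. Cd14 was high in 4HH38 (17.0 CPM), Csf1r was low in 6RARA65 (45.01 CPM), and Fcgr2b was high in 4RARA39 (7.43 CPM, from 40 reads). The causes were not tested.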

How the results depend on the processing

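Counts of members called for exposure depended on the fit. In lung (2 with all libraries), 0 were called with library batch as a covariate (4 at an unadjusted p under 0.05), with limma voom and litter as a random effect (2), with edgeR on counts summed over each litter (1) and in females only (2), and 1 without litter 3HH. Over all genes these fits called, in that order, 156 of 12115, 10 of 12115, 0 of 12650, 11 of 12129 and 349 of 12310. At that unadjusted p lay 1556, 450, 358, 874 and 2204 genes, in the same order. In RV (1 with all libraries), 0 were called with RIN or with library batch as a covariate, with limma voom and litter as a random effect, with summed counts, in females only, in males only, in fits that left out 3HH, 4HH, 6RARA or 4HH37 with 6RARA, and 2 were called with 4RARA left out. Over all genes, the RV fit without 4RARA called 6518 of 11716. Limma voom, summed counts, females only and the fit without 3HH called 0 genes in RV. The other RV fits with no member called gave from 2 genes (males only) to 52 (without 4HH). With litter as the unit only 2 litters stand against 2. The interaction of tissue and treatment gave 1 call without 4RARA in place of 0, in a fit that called 3474 of 11814 genes. DESeq2 gave 1 in RV for 4HH against 3HH in place of 0, where it called 289 of 11163 genes. Leaving out 1 of the 4 RVs of 6RARA gave 2 to 4 members called between the room air litters. With the replicate block by animal, 7 members differed between lung and RV and 0 in the interaction, the same counts as without it. The other 65 of 83 alternatives kept their count within 1.5 times. That count does not track which members were called: in lung without 6RARA, Vsig4 lost its call and Adgre1 gained one. Of 704 alternative values of single members, 44 changed sign, none of them a called value. Alternatives that leave out 4HH37 together with other libraries, or 4HH39 or 6RARA66 alone, the list genes without libraries that stood apart, and the interaction of sex and treatment were chosen after seeing the data. Depth limits Vsig4 and Marco in lung and Fcgr2b in RV most, at no more than 117 reads in a library. The cause of each lost call was not tested, apart from the smaller number of samples.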
